A study of Homo sapiens with 12 samples.

Results

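Amino acid uptake and asparagine synthesis were examined through 10 of the 43769 genes in the count table. They are ASNS, its pseudogene ASNSP1, SLC16A6, and the amino acid carriers SLC7A11, SLC7A5, SLC3A2, SLC7A1, SLC1A4, SLC1A5 and SLC38A2. The genes were taken by name over all 12 libraries, and all 10 were among the 15828 genes that passed the filter on low counts. SLC16A6 and ASNSP1 were chosen by their measured increase with doxycycline, and the other genes with earlier results of the same libraries known. The doxycycline values of the 10 genes are therefore a description, and no test result on them is read as support.

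RNA sequencing was done on a clonal line of SK-N-DZ, a MYCN-amplified neuroblastoma cell line with wild-type ARID1A, carrying an inducible short hairpin RNA against ARID1A, a subunit of the SWI/SNF chromatin remodeler. Of 4 groups with 3 libraries each, the control group (C) had no treatment, group D had doxycycline for 4 days to switch the hairpin on, group I had interferon gamma (IFNγ) for 24 h, and group DI had both. The labels call C and I "WT" and D and DI "shARID1A", but all 4 groups are 1 clone with the hairpin in its genome, and which of the study's hairpins it holds was not given in the sources used here. No library had doxycycline without the hairpin, so the drug, the hairpin and a loss of ARID1A cannot be told apart.

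Amino acids enter cells through carriers that either trade one amino acid for another or move it along with sodium, and the cell adjusts these carriers to its supply. When amino acids run short or proteins misfold in the endoplasmic reticulum, the kinases of the integrated stress response phosphorylate the initiation factor eIF2α, and translation of the transcription factor ATF4 goes up. ATF4 binds short DNA elements near genes of amino acid uptake and synthesis, among them ASNS and SLC7A11.

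The libraries held between 16469832 and 21790869 counts, and 3 counts, taken as the detection floor, equal 0.135 to 0.187 counts per 1000000 (CPM). All 10 neuroblastoma markers were above this floor in every library, with a summed level of 3910 to 5210 CPM. Blood markers summed to at most 1.5 CPM, with CD3E at 0 in all 12 libraries, epithelial markers to at most 2.33 CPM and fibroblast markers to between 33.0 and 122 CPM. ARID1A mRNA differed by −0.092 on the log2 scale in D vs C (SE 0.11, edgeR's adjusted p = 0.788) and by −0.44 in DI vs I (SE 0.11, adjusted p = 0.115, or 0.0111 with the replicate number as a block). Mitochondrially encoded mRNAs held 2.90 to 4.99% of counts in C and I, and 0.768 to 2.58% in D and DI. That shift moved with the doxycycline label in the same libraries as the values below, and its part in them was not tested. The labels do not say that replicates are separate cultures, so p-values measure the spread between these libraries.

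Promoter sequences were available from RefSeq for 7 of the 10 genes, with 13 start sites in all, each from 250 bases before the start to 50 bases after it. They were searched on both strands for the C/EBP-ATF response element bound by ATF4 (CARE, spelled TGATGNAA) and for the E-box bound by MYC proteins (CACGTG). No match of one motif overlapped a match of another. CARE letters were found at 5 of the 13 start sites, 1 each of ASNS, SLC7A1, SLC1A4, SLC1A5 and SLC3A2, against 3.62% of all 35116 promoters in the table. E-box letters occurred in SLC7A5 and SLC1A5 (7.26% of all promoters). Of these matches, the 4 CARE matches that lie within the stretch printed are shown for where the letters sit relative to the start, and that of SLC3A2 lies outside it. Each run covers 100 bases before the start and the first 20 transcribed bases, read 5′ to 3′ on the gene's strand in build GRCh38.p14, with the CARE letters in capitals.
ASNS, chr7:97872389-97872508, minus strand: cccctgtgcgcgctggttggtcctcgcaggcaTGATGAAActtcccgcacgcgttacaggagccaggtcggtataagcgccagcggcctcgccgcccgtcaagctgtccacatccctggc
SLC7A1, chr13:29595669-29595788, minus strand: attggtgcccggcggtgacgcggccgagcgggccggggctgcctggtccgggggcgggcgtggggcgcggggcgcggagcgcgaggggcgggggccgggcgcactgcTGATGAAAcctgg
SLC1A4, chr2:64989299-64989418, plus strand: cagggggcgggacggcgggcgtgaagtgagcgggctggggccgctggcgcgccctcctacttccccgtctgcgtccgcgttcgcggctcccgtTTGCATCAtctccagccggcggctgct
SLC1A5, chr19:46784795-46784914, minus strand: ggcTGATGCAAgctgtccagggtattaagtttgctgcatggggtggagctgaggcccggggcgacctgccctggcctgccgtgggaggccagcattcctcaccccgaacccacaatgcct
In ASNS the element lies 68 to 61 bases before the start. In SLC7A1 it covers transcribed bases 8 to 15, in SLC1A4 it runs on the minus strand from 7 bases before the start to the first transcribed base, and at the third start site of SLC1A5 it lies 97 to 90 bases before the start. The table had no promoter for SLC16A6, SLC7A11 or ASNSP1.

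With doxycycline, all 10 genes had a higher mean than without it, both in D against C and in DI against I. In bulk RNA, a change in RNA per cell and a change in the make-up of the culture cannot be told apart. The differences ran from 1.31-fold (SLC38A2) to 25.4-fold (SLC7A11) in D vs C, and from 1.18-fold (SLC1A4) to 10.3-fold (SLC7A11) in DI vs I. Over the 10 genes the log2 fold changes had a median of 1.24 (D vs C) and 1.34 (DI vs I), where those of all tested genes had medians of −0.0012 and −0.0068. Without replicate 3 of D the first median was 0.76, and without replicate 3 of DI the second was 0.98. Every D library was above every C library for 7 of the 10 genes, which held for 10.1% of all tested genes, and every DI library was above every I library for 9 of them, which held for 8.17%. These counts describe how the genes were chosen and are not support for it. The 2 comparisons use different libraries, but same-numbered libraries vary together across them.

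**Figure D1:**
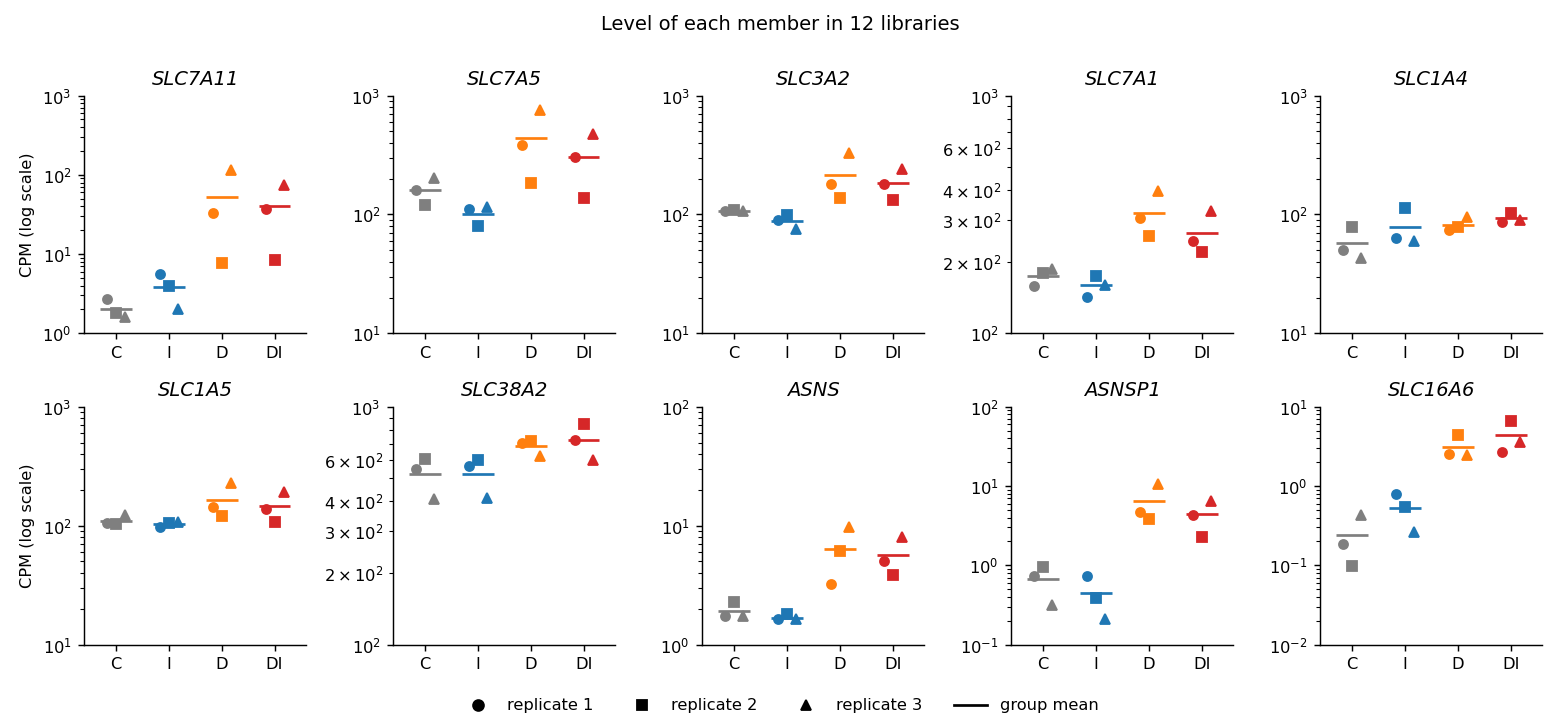
Level of each of the 10 genes in CPM on a log axis (y), by group (x), with 1 point per library, a marker for each replicate number and a line for the group mean. The D and DI points of SLC7A11, ASNS, ASNSP1 and SLC16A6 all lie above the C and I points, while those of SLC1A4 mix with them.

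SLC7A11 (ENSG00000151012, chr4:138164097-138242349, minus strand, GRCh38) encodes xCT, the light chain that imports cystine in exchange for glutamate and so feeds glutathione synthesis. Its level was 2.70, 1.79 and 1.62 CPM in C (replicates 1 to 3) and 5.59, 3.98 and 2.04 in I without doxycycline, and 33.4, 7.66 and 114 in D and 36.7, 8.46 and 74.7 in DI with it. Every library with doxycycline was above every library without it, but the 3 libraries of D differed from each other by more than the lowest of them differed from C. On the log2 scale the difference was 4.66 for D vs C (SE 1.03) and 3.36 for DI vs I (SE 0.95). Both were the widest of the 10 genes with all libraries and no replicate block. Without replicate 3 of D the first value was 3.33, below that of SLC16A6 (3.86). Without replicate 3 of DI the second was 2.54, below ASNSP1 (2.87) and SLC16A6 (3.12). With the replicate number as a block the second was 2.84, also below ASNSP1 (3.19) and SLC16A6 (2.94). The antisense gene SLC7A11-AS1 shares 865 exonic bases with it and had 0 to 4 counts per library.

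SLC7A5 (ENSG00000103257, chr16:87830023-87869488, minus strand) encodes LAT1, which brings in leucine and other large neutral amino acids. It stood at 160, 119 and 201 CPM in C and 111, 79.8 and 114 in I without doxycycline, and 383, 185 and 758 in D and 305, 138 and 478 in DI with it. The DI libraries were all above the I libraries, whereas replicate 2 of D, at 185 CPM, lay below replicate 3 of C. On the log2 scale the difference was 1.46 for D vs C (SE 0.51) and 1.59 for DI vs I (SE 0.51), with 0.83 when replicate 3 of D was left out.

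SLC3A2 (ENSG00000168003, chr11:62856102-62888875, plus strand) encodes CD98hc, the heavy chain that both SLC7A5 and SLC7A11 need to reach the cell surface. It had 107, 109 and 107 CPM in C and 89.1, 98.5 and 75.2 in I without doxycycline, and 180, 138 and 332 in D and 181, 133 and 241 in DI with it. The 6 libraries with doxycycline were above the 6 without it, and the 3 control libraries were within 3 CPM of each other. SLC3A2 had a log2 fold change of 1.01 for D vs C (SE 0.30) and 1.08 for DI vs I (SE 0.30). Without replicate 3 of D the first value was 0.56. SLC7A5 had 1.09 to 1.89 counts per SLC3A2 count in C and 1.34 to 2.28 in D, so these ranges overlap. SLC7A11 had 0.0152 to 0.0254 counts per SLC3A2 count in C and 0.0556 to 0.344 in D, which do not overlap. With IFNγ the ranges were 0.0272 to 0.0627 in I and 0.0638 to 0.31 in DI. These 2 ranges nearly touch, and that of I overlaps that of D.

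SLC7A1 (ENSG00000139514, chr13:29509410-29595688, minus strand) encodes CAT1, the main carrier of arginine and lysine in many cells. Its level was 159, 179 and 186 CPM in C and 143, 174 and 160 in I without doxycycline, and 307, 257 and 398 in D and 245, 219 and 327 in DI with it. Libraries with and without doxycycline did not overlap, with replicate 2 of D and of DI nearest to the libraries without it. The log2 fold change was 0.88 for D vs C (SE 0.18) and 0.73 for DI vs I (SE 0.18).

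SLC1A5 (ENSG00000105281, chr19:46774883-46788594, minus strand) encodes ASCT2, a sodium-dependent exchanger that takes up glutamine. It had 105, 104 and 122 CPM in C and 98.02, 105 and 107 in I without doxycycline, and 142, 121 and 227 in D and 139, 108 and 191 in DI with it. Replicate 2 of D lay just below replicate 3 of C, and replicate 2 of DI only just above the highest I library. For SLC1A5 the fold change was 0.57 on the log2 scale for D vs C (SE 0.24) and 0.50 for DI vs I (SE 0.24), and both were 0.26 without replicate 3 of D or of DI. On the reference annotation the antisense gene AC008622.2 shares 780 exonic bases with SLC1A5, or 23.4%, and it has no entry in the count table.

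SLC1A4 (ENSG00000115902, chr2:64988477-65023865, plus strand) encodes ASCT1, a related exchanger of alanine, serine and cysteine. It had 49.7, 78.6 and 43.2 CPM in C and 63.9, 114 and 59.3 in I without doxycycline, and 73.5, 78.5 and 94.7 in D and 86.2, 104 and 90.4 in DI with it. The groups overlapped in both comparisons, and in the pairs of replicate 2 the library with doxycycline was the lower one. The log2 fold change was 0.52 for D vs C (SE 0.27) and 0.24 for DI vs I (SE 0.27), the latter no larger than its standard error and 0.60 without replicate 2 of I or 0.084 without replicate 3 of I. The D vs C value was 0.82 without replicate 2 of C.

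SLC38A2 (ENSG00000134294, chr12:46358189-46372867, minus strand) encodes SNAT2, which takes up glutamine, alanine and other small neutral amino acids with sodium and is induced by amino acid starvation in many cell types. Its level was 548, 602 and 411 CPM in C and 562, 596 and 412 in I without doxycycline, and 705, 718 and 621 in D and 724, 850 and 598 in DI with it. Every library with doxycycline lay above its own control group, by a small margin. The log2 fold change was 0.39 for D vs C (SE 0.18) and 0.47 for DI vs I (SE 0.18), and the first was 0.24 without replicate 3 of C. As counted, it was the most abundant of the 10 genes per length in all 4 groups, with 78.8 CPM per kilobase of exon in C and 103 in D.

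ASNS (ENSG00000070669, chr7:97852118-97872542, minus strand) encodes asparagine synthetase, which makes asparagine from aspartate and glutamine. It had 28, 46 and 28 counts in C and 33, 33 and 31 in I without doxycycline, and 68, 118 and 169 in D and 98, 75 and 177 in DI with it. In CPM these were 1.72, 2.28 and 1.75 in C and 1.63, 1.80 and 1.63 in I without doxycycline, and 3.24, 6.11 and 9.79 in D and 5.03, 3.85 and 7.97 in DI with it. The 6 libraries with doxycycline were above the 6 without it, and the C and I libraries were close together. The log2 fold change was 1.73 for D vs C (SE 0.40) and 1.73 for DI vs I (SE 0.40). On the reference annotation (GENCODE 29), 1985 of the 4455 exonic bases of ASNS, or 44.6%, also belong to AC079781.5 on the same strand. AC079781.5 has no entry in the count table. How the authors' counting treated reads from shared bases was not given in the sources used here, so the ASNS counts may cover only part of its reads, and each comparison of its level with that of another gene carries this limit.

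ASNSP1 (ENSG00000248498, chromosome 8, minus strand) is annotated as a transcribed unprocessed pseudogene of ASNS. It had 12, 19 and 5 counts in C and 15, 7 and 4 in I without doxycycline, and 98, 74 and 184 in D and 85, 44 and 145 in DI with it. Its level was 0.738, 0.944 and 0.312 CPM in C and 0.742, 0.382 and 0.210 in I without doxycycline, and 4.67, 3.83 and 10.7 in D and 4.36, 2.26 and 6.53 in DI with it. All libraries with doxycycline were above all those without it. ASNSP1 had a log2 fold change of 3.24 for D vs C (SE 0.63) and 3.28 for DI vs I (SE 0.64), above that of ASNS in both. Without doxycycline there were 0.129 to 0.455 ASNSP1 counts for each ASNS count, and with it 0.587 to 1.44. The ranges of this ratio with and without doxycycline do not overlap. The longest ASNSP1 transcript is identical to an ASNS transcript at 93.3% of 1870 aligned bases, and of its 1865 windows of 75 bases only 2 occur unchanged in any ASNS transcript. Few of its reads could therefore match both genes exactly, but reads with mismatches may have been placed on either.

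SLC16A6 (ENSG00000108932, chr17:68267026-68291267, minus strand) encodes MCT7, a member of the monocarboxylate transporter family that has been linked to the export of ketone bodies and to taurine. It had 3, 2 and 7 counts in C and 16, 10 and 5 in I without doxycycline, and 54, 86 and 42 in D and 52, 131 and 81 in DI with it, so 2 of the 3 control libraries were at or below the floor of 3 counts. Its level was 0.184, 0.0993 and 0.436 CPM in C and 0.792, 0.545 and 0.262 in I without doxycycline, and 2.57, 4.45 and 2.43 in D and 2.67, 6.72 and 3.65 in DI with it. From lowest to highest mean the order was C, I, D and DI, where C and I overlapped, D and DI overlapped, and the libraries with and without doxycycline did not. The log2 fold change was 3.71 for D vs C (SE 0.62) and 3.01 for DI vs I (SE 0.58), and fits without 1 library gave 3.31 to 4.44 and 2.55 to 3.42. As counted, SLC16A6 was the least abundant of the 10 genes per length in all 4 groups, with 0.0591 CPM per kilobase in C and 0.776 in D. Its pseudogene SLC16A6P1 had 0 to 7 counts per library, although 204 windows of 75 bases are the same in both. ARSG, on the opposite strand, shares 144 exonic bases with SLC16A6 and had 47 to 139 counts. Whether counting used strand was not given in the sources used here.

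**Figure D2:**
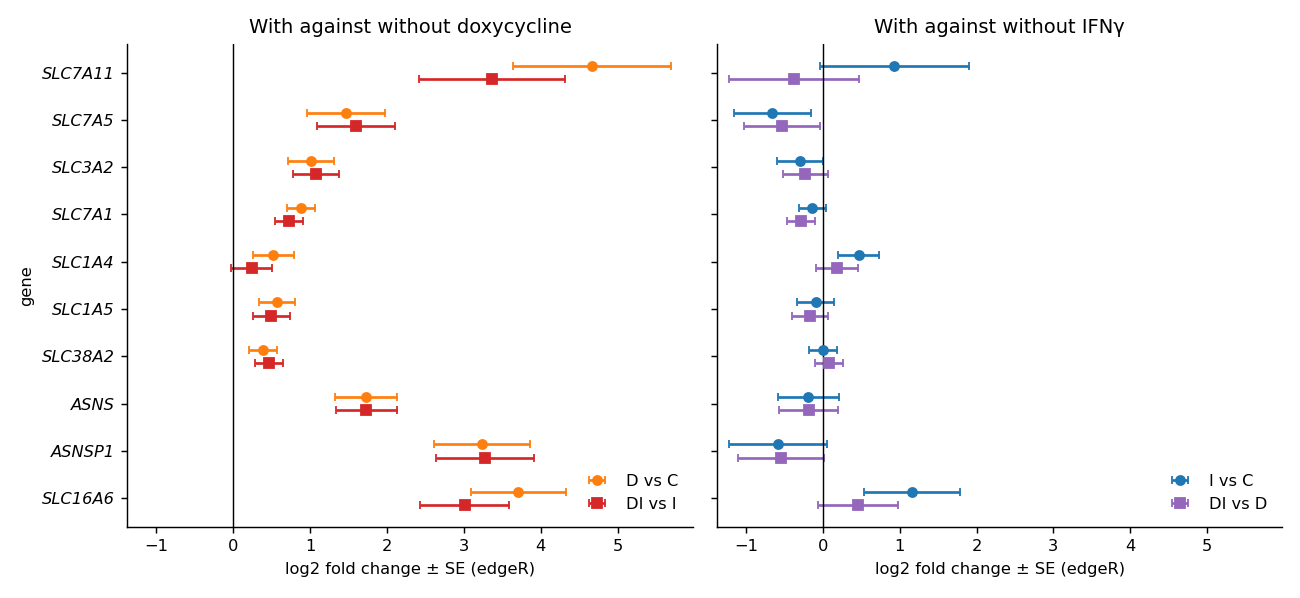
Fitted log2 fold change with its standard error (x) for each of the 10 genes (y), for D vs C and DI vs I on the left and for I vs C and DI vs D on the right, from 3 libraries a group. The doxycycline values reach 4.66 (SLC7A11), while those for IFNγ lie between −0.66 (SLC7A5) and 1.16 (SLC16A6).

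In the fit across all genes, 3 of the 10 genes passed an adjusted p of 0.05 in D vs C (ASNSP1, SLC16A6 and SLC7A1), beside 1.23% of all tested genes, and 2 in DI vs I (ASNSP1 and SLC16A6), beside 0.67%. With the replicate number as a block these counts were 9 and 8, beside 13.9% and 10.5% of all tested genes. SLC7A11, with the widest difference, was not among the genes that passed without the block. Because the same contrasts chose the genes, nothing is read from these counts.

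The response to doxycycline varied between replicate numbers in a way that split the 10 genes. In same-numbered pairs of D and C, the median difference in log2 CPM over the 10 genes was 0.91, 0.58 and 1.77 for replicates 1, 2 and 3, and for DI and I it was 1.24, 0.65 and 1.87. Each of 9 genes was higher with doxycycline in 3 of 3 pairs in both comparisons, the exception being SLC1A4 in replicate 2. SLC7A11, SLC7A5, SLC3A2, SLC7A1 and SLC1A5 had their highest doxycycline libraries in replicate 3 and their lowest in replicate 2, in D and again in DI. ASNSP1 followed the same order. For SLC7A11 the differences were 3.57, 2.04 and 6.05 for D vs C and 2.69, 1.07 and 5.12 in DI vs I. SLC16A6 had another order, with its highest library in replicate 2 of both groups and differences of 3.21, 4.48 and 2.23 for D vs C and 1.63, 3.39 and 3.35 for DI vs I. SLC38A2 was also highest in replicate 2 of D and of DI, with differences that stayed between 0.25 and 0.60. Since D and DI libraries of 1 number vary together, this is 1 pattern seen in linked libraries.

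**Figure D3:**
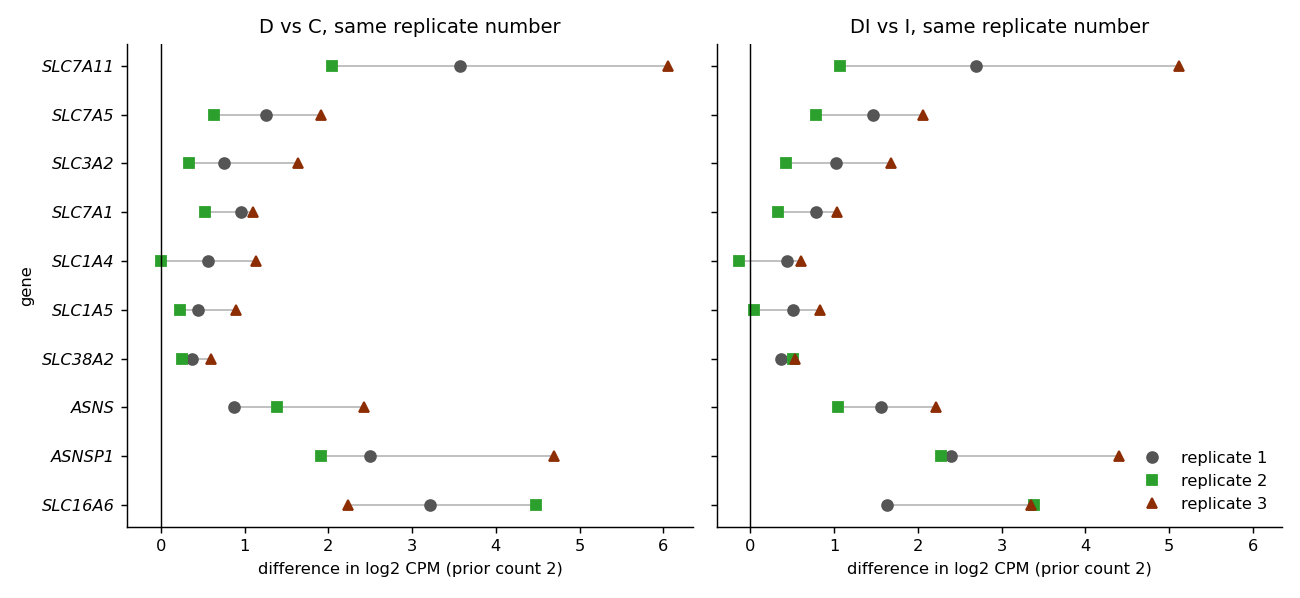
Difference in log2 CPM (prior count 2) between the same-numbered libraries with and without doxycycline (x) for each of the 10 genes (y), without IFNγ on the left and with it on the right, 1 marker per replicate number. Replicate 3 lies farthest right and replicate 2 farthest left for SLC7A11, SLC7A5 and SLC3A2, and SLC16A6 has replicate 2 on the right, with replicate 3 beside it in DI vs I (3.39 and 3.35).

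None of the 10 genes passed the threshold for IFNγ. The stated choice named the increase with doxycycline, but earlier results of these libraries were known, so this test is not fully independent of it. Averaged over both doxycycline states, 0 of 10 were called by edgeR's quasi-likelihood test, beside 3.81% of all tested genes. An unadjusted p under 0.05 was seen in 0 of them, beside 1851 of 15828 genes overall. DESeq2 also called 0 (857 of 18303 genes overall), as did the fit with the replicate number as a block (1724 of 15828). In the latter 3 (SLC7A5, SLC7A1 and SLC1A4) had an unadjusted p under 0.05, beside 3874 of 15828 genes overall. A count of 0 in 10 is near these shares of called genes, so it does not set the 10 genes apart. In I vs C (2.21% of all genes called) and in DI vs D (1.72%) the count was likewise 0 of 10 by edgeR. It was also 0 by DESeq2 (530 and 405 of 18303 genes overall) and with the block (953 and 706 of 15828). In the latter fit 2 genes had an unadjusted p under 0.05 in I vs C and 0 in DI vs D, beside 2862 and 2283 genes overall. Without the block the count was 0 in both, beside 1267 and 987.

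SLC16A6 had the largest averaged value for IFNγ, 0.81 on the log2 scale (SE 0.41, adjusted p = 0.501 by edgeR, 0.234 with the block). It was higher in I than in C in replicates 1 and 2 and lower in replicate 3, and higher in DI than in D in 3 of 3 pairs. SLC7A5 lay at −0.59 (SE 0.35, adjusted p = 0.629 by edgeR, 0.0631 with the block) and was lower with IFNγ in 3 of 3 pairs both in I vs C and in DI vs D, with differences of −0.531, −0.580 and −0.813 and of −0.329, −0.426 and −0.665 in log2 CPM. Its unadjusted p with the block, in edgeR, was 0.0077. SLC7A1 lay at −0.21 (SE 0.13, adjusted p = 0.642 by edgeR, 0.198 with the block) and was likewise lower in all of these pairs. SLC1A4 lay at 0.33 (SE 0.19, adjusted p = 0.611 by edgeR, 0.182 with the block) and was higher in I than in C in 3 of 3 pairs. SLC38A2 lay nearest to 0, at 0.048 (SE 0.13, adjusted p = 0.983). None of these values passed the adjusted threshold in the tests made.

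The test of whether IFNγ changed the response to doxycycline, the interaction of both, called 0 of the 10 genes and 0.0% of all tested genes by edgeR, and 0 of the 10 by DESeq2 and with the block. SLC7A11 had the largest interaction value, −1.30 on the log2 scale (SE 1.29, adjusted p = 1.0), followed by SLC16A6 at −0.70 (SE 0.80, adjusted p = 1.0). For both, a value of 1, or a 2-fold change of the doxycycline response, lay within 2 standard errors of 0 and was not detectable.

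Other carriers of amino acids were counted over a list of 42 genes from related families. Of the 23 that could be tested, 1 rose in D vs C and 0 fell, beside 1.23% of all tested genes called. None passed in DI vs I by edgeR, beside 0.67%. There 3 had an unadjusted p under 0.05, beside 1934 of 15828 genes overall. The median of the 23 was 0.14 on the log2 scale for D vs C, or −0.0029 with the block, and −0.021 for DI vs I. SLC43A2 (LAT4, a carrier of branched-chain amino acids and phenylalanine) rose from 42.5, 46.0 and 45.1 CPM in C to 64.8, 67.8 and 60.1 in D, with no overlap. It had a log2 fold change of 0.53 (SE 0.091, adjusted p = 0.0214 by edgeR), and 0.46 in DI vs I (SE 0.090, adjusted p = 0.0528, or 0.00386 with the block). When each of the 6 libraries was left out in turn it passed only without replicate 3 of D, with adjusted p between 0.0418 and 0.111. With the replicate number as a block 4 of the 23 were called in each comparison, all higher, beside 13.9% and 10.5% of all tested genes. DESeq2 called 3 in each, beside 649 of 13677 and 460 of 14701 of all genes it tested. SLC38A1, the closest relative of SLC38A2 in the list, was at 547 ± 148 CPM in C and 862 ± 161 in D (SD, n = 3), a log2 fold change of 0.66 (SE 0.28, edgeR's adjusted p = 0.325, or 0.0018 with the block). SLC7A6, which like SLC7A5 pairs with SLC3A2, was at 0.27 (SE 0.31, adjusted p = 0.778).

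Among 13 tested genes of the SLC16 family and its chaperones, SLC16A14, an orphan member of the family, rose in D vs C (log2 fold change 0.92, SE 0.17, edgeR's adjusted p = 0.0286), from 17.03 ± 4.04 to 32.3 ± 0.292 CPM (SD, n = 3). SLC16A9, a carrier of carnitine and creatine, rose in DI vs I (1.07, SE 0.21, adjusted p = 0.0493), from 18.0 ± 4.79 to 37.9 ± 4.21 CPM. Each gene's value in the other comparison missed the threshold without the block (0.0736 for SLC16A14 in DI vs I, 0.0667 for SLC16A9 in D vs C) and passed with it (0.00647 and 0.00294). Without the block 1 of the 13 was called in each comparison, beside 1.23% and 0.67% of all tested genes. With the block 4 of the 13 were called in D vs C (3 higher, 1 lower), beside 13.9% of all tested genes. In DI vs I 3 were called with it (2 higher, 1 lower), beside 10.5%. The added genes, named after their values were seen, were SLC16A8 in D vs C (log2 fold change 1.42, adjusted p = 0.0265 with the block in edgeR) and, lower in both, SLC16A10, a carrier of aromatic amino acids (−0.48 and −0.46, adjusted p = 0.0283 and 0.042). With 1 library left out, SLC16A14 passed in D vs C only without replicate 2 of C (adjusted p 0.0242 to 0.147) and SLC16A9 passed in DI vs I in 0 of 6 fits (0.0919 to 0.155). SLC16A1 (MCT1, the lactate carrier) had 154 ± 8.98 CPM in C and 161 ± 21.0 in D (log2 fold change 0.061, SE 0.13, adjusted p = 0.9). The list's median was 0.050 in D vs C and −0.023 for DI vs I. Scaling by library size alone turned the small negative medians of this list, of the other carriers and of the mTORC1 list positive, at most to 0.073.

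Enzymes that make or use glutamine, aspartate and asparagine had 0 of 19 tested genes called in either comparison by edgeR, with 5 at an unadjusted p under 0.05 in each, and medians of 0.0098 and 0.034. DESeq2 called 3 for D vs C and 1 for DI vs I, and the fit with the block called 4 in each. Over all tested genes the block called 13.9% and 10.5%, edgeR without it 1.23% and 0.67%, and DESeq2 649 of 13677 and 460 of 14701. Without the block 2248 and 1934 of 15828 genes had an unadjusted p under 0.05 by edgeR. The mTORC1 amino acid sensing list likewise had 0 of 28 called by edgeR in either comparison, with 4 at an unadjusted p under 0.05 in each. DESeq2 called 1 in each, the fit with the block 4 for D vs C and 1 for DI vs I, and the medians were −0.018 and −0.053.

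Among 22 tested regulators of the amino acid response, 0 rose and 1 fell in each comparison by edgeR, beside 1.23% and 0.67% of all tested genes called. The gene that fell was ATF2, a transcription factor of the CREB/ATF family, from 119, 137 and 113 CPM in C to 60.6, 75.7 and 59.4 in D (log2 fold change −0.92, SE 0.16, edgeR's adjusted p = 0.026) and from 142, 141 and 109 in I to 61.1, 82.5 and 58.6 in DI (−0.96, SE 0.16, adjusted p = 0.0294). The groups did not overlap in either comparison. With 1 library left out it passed only without replicate 2 of D in D vs C (adjusted p 0.0435 to 0.111) and only without replicate 2 of DI or replicate 3 of I in DI vs I (0.0212 to 0.136), and all 12 of these fits gave a negative value. The median of the 22 regulators was 0.31 on the log2 scale for D vs C and 0.18 for DI vs I. With the block 7 were called in D vs C (6 higher, 1 lower), beside 13.9% of all tested genes. In DI vs I 5 were called with it (4 higher, 1 lower), beside 10.5%. DESeq2 called 4 and 1, beside 649 of 13677 and 460 of 14701 of all genes it tested. ATF4 mRNA was at 338, 351 and 253 CPM in C and 258, 320 and 205 in I without doxycycline, and 391, 435 and 515 in D and 365, 404 and 409 in DI with it. Every library with doxycycline was above its own control group, yet the log2 fold changes of 0.51 (SE 0.18) and 0.59 (SE 0.18) had adjusted p of 0.215 and 0.196 by edgeR, or 0.0517 and 0.0369 with the block.

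CEBPB, a transcription factor that can pair with ATF4, was at 27.3, 19.4 and 32.8 CPM in C and 64.6, 33.0 and 189 in D (log2 fold change 1.85, SE 0.57, edgeR's adjusted p = 0.164, or 0.0172 with the block). TRIB3, a pseudokinase that restrains ATF4, was at 22.1, 17.8 and 39.3 CPM in C and 27.7, 17.2 and 106 in D (0.93, SE 0.66, adjusted p = 0.586). DDIT3, which encodes CHOP, was at 4.49, 3.63 and 5.49 CPM in C and 4.15, 11.9 and 24.9 in D (1.59, SE 0.52, adjusted p = 0.194, or 0.0317 with the block). In DI vs I none of these 3 passed by edgeR, with or without the block. The log2 fold changes there were 1.18 for CEBPB (SE 0.55), 0.55 for TRIB3 (SE 0.66) and 1.25 for DDIT3 (SE 0.52). Their adjusted p were 0.426, 0.829 and 0.364 by edgeR, and 0.103, 0.334 and 0.051 with the block. In all 3 genes replicate 3 was the highest D library. The lowest D library was replicate 2 for CEBPB and TRIB3 and replicate 1 for DDIT3. EIF2AK4, which encodes the kinase GCN2 that senses uncharged tRNA, differed by −0.012 in D vs C (SE 0.083, adjusted p = 0.975).

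**Figure D4:**
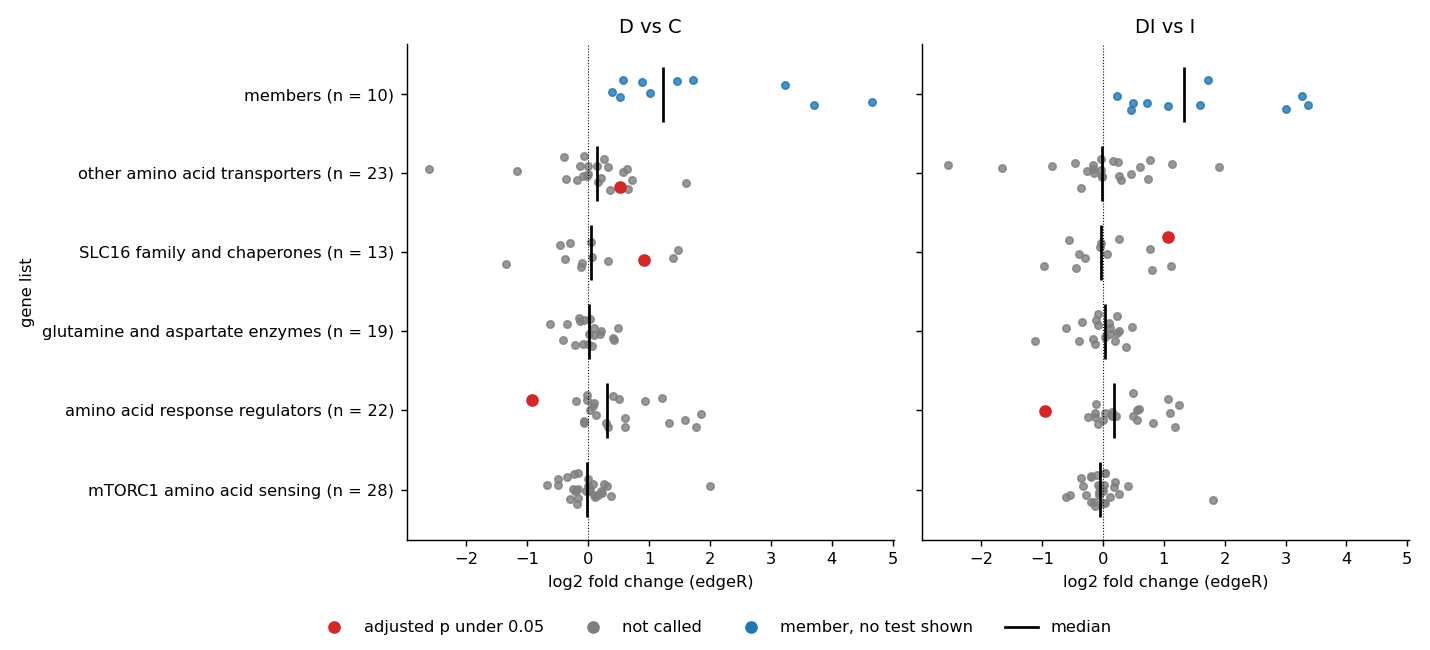
Fitted log2 fold change (x) of each tested gene in 6 gene lists (y), for D vs C on the left and DI vs I on the right. A line marks each list's median. Red points are genes with an adjusted p under 0.05, and blue points, with no test shown, are the 10 genes described above (members). These 10 have medians of 1.24 and 1.34, and the other lists have medians between −0.053 and 0.31.

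Over the 12 libraries, the genes with a pattern most like SLC16A6 among 13961 with a mean of at least 1 CPM were ATAD5 (Pearson r = 0.991 of log2 CPM), SLC43A2 (0.967), BRCA2 (0.927), GOLGA1 (0.923) and NLRC4 (0.923). Those most like ASNS were SMPD4BP (0.969), INPP5B (0.962), INHBE (0.961), TPRKB (0.955) and PCGF3 (0.952), with ASNSP1 at rank 12 (0.934). Within the 10 genes ASNS was nearer to SLC7A1 (0.918) and SLC3A2 (0.913) than to SLC16A6 (0.776). The 12 points fall in 2 clouds, with and without doxycycline, and share libraries and scaling, so these coefficients are a description of ranks.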

How the data were processed

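The authors deposited 1 table of unnormalized counts per gene for 12 libraries. The aligner, counting tool, build and strand setting were not given in the sources used here. Positions and exon lengths came from GENCODE 29 (GRCh38), which holds all 43769 identifiers of the table. The authors also deposited DESeq2 comparison tables of fold changes and p-values, which were not used, nor were 18 per-library columns in them.

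Counts were scaled by TMM, filtered with filterByExpr (minimum count 10) and tested in 1 quasi-likelihood model of 4 groups (edgeR 4.0.16, limma 3.58.1, R 4.3.3), two-sided, with Benjamini-Hochberg adjustment over 15828 genes. Genes with an adjusted p under 0.05 are called. CPM divide counts by the scaled library size, and the floor covers counting error only. Values after ± are the SD of a group's 3 libraries, and SE values come from the edgeR fit. Both include the spread between libraries. The code was tested on simulated data. Sequences came from RefSeq's promoter table (GRCh38.p14). Python 3.11.15 and Biopython 1.88 were used for these and for alignments.

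Replicate numbers come from the labels. After group means were removed, same-numbered libraries correlated at 0.338 to 0.804 (18 pairs) and others at −0.628 to 0.143 (36 pairs), so the numbers pair the libraries. A fit with the number as a block is given beside a result where it changes a call.

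The 10 genes, the gene lists and the rule for names were chosen with earlier results of these data known. Named were all 10 genes, list genes called with doxycycline (at most 4 per list and comparison), 5 regulators, 3 relatives, ARID1A, and the 5 genes most like SLC16A6 and ASNS. Alternatives were DESeq2 1.42.0, other scalings, no filter, the block, only the groups compared, and leaving out each library. Some items are not reported here.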

Additional observations from a re-analysis of the deposited data

How the results depend on the processing

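Every doxycycline value of the 10 genes stayed positive under all alternatives, and their median lay between 1.11 and 1.32 in D vs C and between 1.22 and 1.43 for DI vs I when all libraries were used. With 1 library left out the medians ran from 0.76 to 1.503 and from 0.98 to 1.61. On the log2 scale the widest change was that of SLC7A11, from 4.66 to 3.33 without replicate 3 of D, while relative to their size SLC1A5 (0.57 to 0.26 without it) and SLC1A4 in DI vs I (0.24 to 0.084 without replicate 3 of I) moved further. Same-numbered libraries are pairs. With the replicate number as a block, 9 of the 10 genes were called in D vs C (13.9% of all tested genes) and 8 in DI vs I (10.5%). Without the block the calls were 3 and 2. DESeq2 called 7 of the 10 in each (649 of 13677 genes overall in D vs C and 460 of 14701 in DI vs I). Because the same contrasts chose the genes, nothing is read from these counts. Fits on only the groups compared called none of the 10, but also only 16 of 14773 genes overall in D vs C and 0 of 15103 in DI vs I by edgeR, with 1848 and 1508 at an unadjusted p under 0.05. Among the 23 other carriers, the 1 call in D vs C became 3 with DESeq2, 4 with the replicate block, 0 without the filter on low counts, 0 with only the groups compared, and 0 to 1 with 1 library left out. The 0 calls in DI vs I became 3 with DESeq2, 4 with the block, 2 with library size alone and 1 without the filter, and the cause was not tested. For IFNγ averaged over both doxycycline states, leaving out 1 library turned the sign for 4 genes that had not passed the test. ASNS ran from −0.35 to 0.040, SLC7A11 from −0.13 to 0.94, SLC1A5 from −0.25 to 0.027 and SLC38A2 from −0.023 to 0.12. Low counts without doxycycline limit the precision of the fold changes of SLC16A6, with 2 control libraries at or under 3 counts, and of ASNSP1, with 4 to 19 counts. Counts of ASNS (28 to 46) and SLC7A11 (26 to 113) without doxycycline were also low.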

Other observations

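3 genes of the lists are given here for their values, and they were chosen after these were seen. SESN2, which encodes the leucine sensor Sestrin 2, was at 13.6 ± 2.39 CPM in C and 54.8 ± 35.1 in D (SD, n = 3), a log2 fold change of 2.01 (SE 0.45, edgeR's adjusted p = 0.0628, or 0.0131 with the replicate number as a block). SLC6A9, the glycine carrier GlyT1, was at 5.88 ± 1.49 CPM in C and 17.9 ± 9.14 in D, a log2 fold change of 1.61 (SE 0.47, adjusted p = 0.148, or 0.0182 with the block). ASS1, which joins citrulline and aspartate on the way to arginine, rose with IFNγ averaged over both doxycycline states (log2 fold change 2.68, SE 0.42, edgeR's adjusted p = 0.00276). It went from 116 ± 76.4 CPM in C to 1065 ± 453 in I and from 109.7 ± 15.6 in D to 494 ± 244 in DI. By edgeR the adjusted p was 0.0151 in I vs C but 0.14 in DI vs D. In DI vs I its log2 fold change was −1.11 (adjusted p = 0.471), or −1.17 with the block (adjusted p = 0.0327).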
